A study of Mus musculus with 2 samples.

Results

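Lmx1b, En1 and Wnt7a are the genes by which the limb bud is known to be divided along the dorsal-ventral axis. They were chosen by name, and all 3 are among the 56982 features counted in both libraries. Counts were unique molecular identifiers (UMIs), of which each captured RNA molecule carries 1. The data were droplet-based single-cell RNA sequencing of mouse hindlimb at E11.5, with 1 embryo per library and 1 library per construct. Both embryos were of the FVB strain and carried a pair of fluorescent reporters at the H11 locus, an mCherry reporter under ZRS, the limb enhancer of Shh, and an eGFP reporter under the variant ZRS404G>A. The dual-enSERT-1 embryo had the genotype H11 ZRS-mCherry/ZRS404G>A-eGFP. In the dual-enSERT-2 embryo, the label places an SI element between ZRS-mCherry and ZRS404G>A-eGFP and a B element at either end, and does not spell out B or SI. No embryo without reporters was among the samples. With 1 embryo and 1 library per construct, the effects of construct, embryo and preparation cannot be told apart between the libraries.

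In the limb bud, the dorsal ectoderm secretes the signal Wnt7a, which induces the LIM homeodomain transcription factor Lmx1b in the mesenchyme beneath it, and Lmx1b specifies dorsal pattern. The ventral ectoderm expresses the homeodomain repressor En1, which keeps Wnt7a out of the ventral side. The apical ectodermal ridge, a thickened rim that expresses Fgf8, forms where the dorsal and ventral surfaces meet, and its ventral part is known to express En1.

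On GRCm39 (mm39) with GENCODE M39, Lmx1b lies at chr2:33450977-33531093 on the minus strand, En1 at chr1:120530108-120535721 on the plus strand and Wnt7a at chr6:91340959-91388460 on the minus strand. The RefSeq promoter table, which is on GRCm38.p6, held all 3 genes. The 250 bases before each start are shown because a non-coding RNA that begins next to the Lmx1b start followed Lmx1b in these cells (below), and because the ectodermal pair differed in base composition. Capitals mark CG dinucleotides, and the windows are chr2:33641099-33641348 (minus strand), chr1:120602237-120602486 (plus strand) and chr6:91411354-91411603 (minus strand).
Lmx1b: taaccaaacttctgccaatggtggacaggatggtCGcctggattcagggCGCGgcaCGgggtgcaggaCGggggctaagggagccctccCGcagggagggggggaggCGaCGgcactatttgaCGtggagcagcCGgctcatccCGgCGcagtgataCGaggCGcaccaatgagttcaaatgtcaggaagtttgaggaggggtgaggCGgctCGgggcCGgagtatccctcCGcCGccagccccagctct
En1: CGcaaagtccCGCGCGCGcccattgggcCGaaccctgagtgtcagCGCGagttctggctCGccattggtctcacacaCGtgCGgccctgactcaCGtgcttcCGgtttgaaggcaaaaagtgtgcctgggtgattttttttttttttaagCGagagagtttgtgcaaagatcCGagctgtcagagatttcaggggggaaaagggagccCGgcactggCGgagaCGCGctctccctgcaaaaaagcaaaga
Wnt7a: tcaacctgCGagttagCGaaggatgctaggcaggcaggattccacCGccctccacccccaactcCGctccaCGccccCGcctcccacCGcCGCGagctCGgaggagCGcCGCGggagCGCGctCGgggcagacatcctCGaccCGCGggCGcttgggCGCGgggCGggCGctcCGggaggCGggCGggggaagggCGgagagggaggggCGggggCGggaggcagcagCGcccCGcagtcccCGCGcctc
The Wnt7a window held 34 CG dinucleotides at 77.6% GC, against 19 at 65.2% for Lmx1b and 19 at 56.0% for En1. As many CG dinucleotides as in Wnt7a occurred in 3.36% of 27025 promoters of this length, and as many as in Lmx1b or En1 in 19.6%. On both strands, none of the 3 windows held the homeodomain core TAATTA (in 4.90% of promoters), the TATA sequence TATAAA (12.97%) or the TCF and LEF sequences CTTTGAA (4.64%) and CTTTGAT (3.23%). The E-box CACGTG (6.05% of promoters) was found 2 times in En1 and in neither of the others. These matches describe letters in a window and not bound sites.

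The libraries differed in size and depth. After filtering, 16041 cells of dual-enSERT-1 (median 14000 UMIs) and 6472 cells of dual-enSERT-2 (median 25841.5 UMIs) were kept, and 29 kept barcodes occurred in both libraries. Cells were clustered without the 3 genes, the reporters, Shh and Fgf8, and named from marker lists. A shallow cluster in each library stayed unnamed and entered no class, with 1450 cells (median 2967.5 UMIs) and 634 cells (median 5209 UMIs). Both held mesenchyme markers at 2-fold or more, Prrx1 among them, so the mesenchyme values leave these cells out. Every marker was at least 2-fold higher in its class, except the muscle markers Actc1 and Myog in dual-enSERT-2. There Actc1 was at 0.448 CPM both in the class and outside it, and no Myog UMI was found in the class. The ectoderm comprised 336 and 151 cells of ectoderm-like clusters with an Epcam UMI, Epcam being an adhesion molecule of epithelia. The mesenchyme comprised 12793 and 3781 cells of mesenchyme-like clusters with a UMI of the limb mesenchyme factor Prrx1. Levels are counts per 1000000 UMIs (CPM) pooled over the cells of a class. Shares are of cells with a UMI after thinning to 5000 UMIs, to compare cells at 1 depth. Cells with fewer UMIs were left out of the shares, and of the ridge, surface and position groups formed below. This left 290 and 136 ectoderm cells. Intervals are 95% exact Poisson (levels) and Clopper-Pearson (shares) intervals, which cover counting error only. For a count of 0, the limit given is instead that of 3 counts over the same total.

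Wnt7a and En1 were concentrated in the tissue layer known to express them, and Lmx1b was so in dual-enSERT-1 only. Wnt7a and En1 were found in ectoderm and nearly absent elsewhere, and the pooled Lmx1b level was higher in mesenchyme than in the other classes, clearly so in dual-enSERT-1. In dual-enSERT-2 the pooled levels of mesenchyme and ectoderm had overlapping intervals, and the share of cells with a Lmx1b UMI was higher in ectoderm (13.2% against 10.2%). Wnt7a stood at 78.1 CPM (71.1 to 85.5) in the ectoderm of dual-enSERT-1 and at 11.4 (8.24 to 15.4) in that of dual-enSERT-2, against 0.0942 and 0.0742 in mesenchyme. En1 stood at 106.8 CPM (98.6 to 115) and 144.5 (132 to 157) in ectoderm, against 0.154 and 0.195 in mesenchyme. Wnt7a thus differed widely between the embryos' ectoderm, while En1 differed less. Over mesenchyme, En1 was higher in ectoderm by 9.52 on the log2 scale (SE 0.31, adjusted p = 4.3e-08) and Wnt7a by 8.88 (SE 0.58, adjusted p = 5.6e-06), in edgeR's quasi-likelihood test with Benjamini-Hochberg adjustment over all genes. In that contrast 24.4% of the genes tested were called.

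At the matched depth, a Wnt7a UMI was found in 27.6% of the ectoderm in dual-enSERT-1, against 8.09% in the other library, and an En1 UMI in 23.4% and 43.4%. In the other classes these 2 genes were at the level of single molecules. Muscle-like cells held no Wnt7a UMI in either library, which allows up to 0.275 and 1.34 CPM, and 5 and 0 En1 UMIs. Endothelial-like cells held 1 UMI of each gene in dual-enSERT-1 and none in dual-enSERT-2, which allows up to 1.21 CPM. The paralog Wnt7b, another Wnt ligand, was also ectodermal (75.7 and 43.8 CPM), whereas no UMI of the En1 paralog En2 was found in ectoderm cells of either library.

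**Figure D1:**
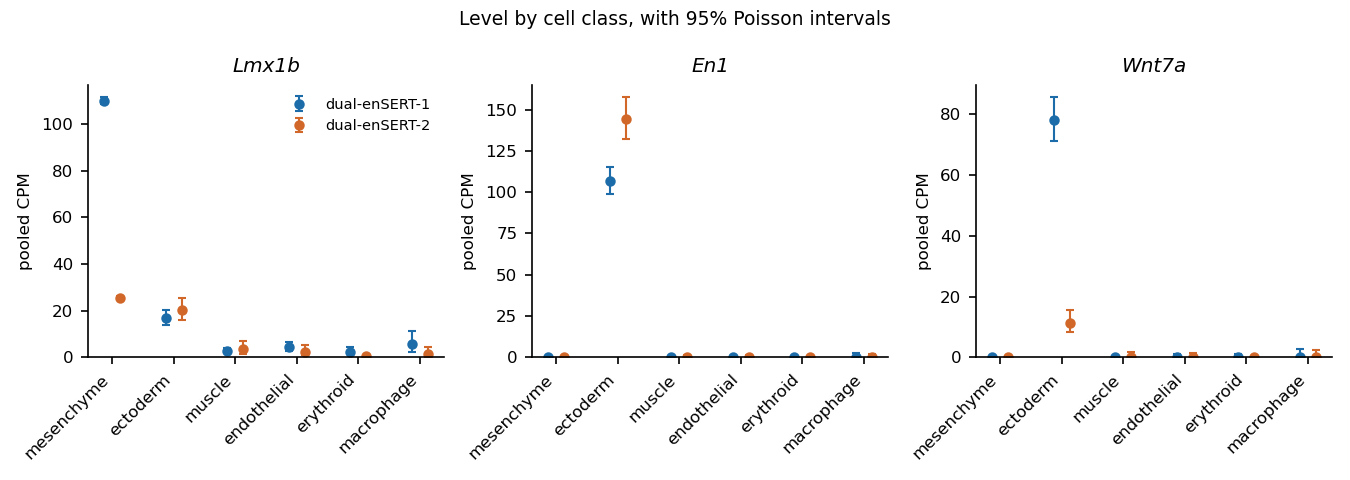
Pooled level (CPM, linear axes that start at 0) of Lmx1b, En1 and Wnt7a in 6 cell classes, 1 point per library with its exact 95% Poisson interval. Outside ectoderm En1 and Wnt7a are at or under 0.458 CPM, and Lmx1b in mesenchyme is at 109.9 CPM in dual-enSERT-1, above the 25.5 of dual-enSERT-2.

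At the matched depth, Wnt7a and En1 were almost never found in the same ectoderm cell. In dual-enSERT-1, 78 of 290 thinned cells held Wnt7a without En1, 66 held En1 without Wnt7a, 2 held both and 144 held neither. If the genes were spread independently at these shares, 18.8 cells would have held both. In dual-enSERT-2, 11 of 136 cells held Wnt7a alone, 59 En1 alone, 66 neither and 0 both, where independence would have given 4.77 cells. Co-detection was thus 0.690% (0.0836 to 2.47) in dual-enSERT-1, and 0 of 136 cells allows a share of up to 2.21% in dual-enSERT-2. These expectations pool ridge and surface cells, whose shares of both genes differ. Within surface cells 1 was found against 8.32 if independent, and 0 against 2.96 in the second library. Within ridge cells 1 was found against 1.35, and 0 against 1.73, too few expected to show a shortage. No test was made, since cells of 1 embryo are not replicates.

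The double cells were few at full depth too. Without thinning, 7 of 336 cells held both genes against 40.1 if independent, and 3 of 151 against 11.4. Of these unthinned double cells, 6 of the 7 and all 3 were in cells with an Fgf8 UMI. These expectations again pool ridge and surface. Within ridge cells at full depth, 6 held both against 10.6 if independent, and 3 against 6.07, a smaller shortage than in the pool. They were 6 of 14 ridge cells with Wnt7a in dual-enSERT-1 and 3 of 11 in dual-enSERT-2. Within surface cells 1 was found against 17.5, and 0 against 4.92. One of the 2 double cells at the matched depth had 77826 UMIs with 2 Wnt7a, 16 En1 and 101 Fgf8 UMIs. The other had 14928 UMIs with 1 Wnt7a, 3 En1 and no Fgf8 UMI. Depth was alike in the exclusive cells, with a median of 13401.5 UMIs in Wnt7a-only and 12846.5 in En1-only cells of dual-enSERT-1. The medians were 21446 and 20614 UMIs for dual-enSERT-2. In cells without a Prrx1 UMI, 1 of 227 and 0 of 106 held both.

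**Figure D2:**
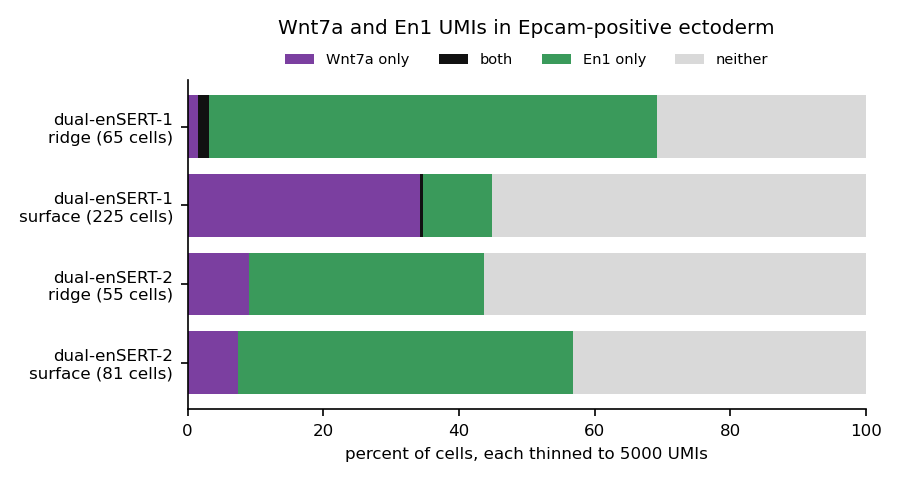
Percent of Epcam-positive ectoderm cells, each thinned to 5000 UMIs, with Wnt7a only, both genes, En1 only or neither, for ridge and surface cells of each library. The black segment for both genes is 1 of 65 ridge and 1 of 225 surface cells in dual-enSERT-1 and is absent in dual-enSERT-2.

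The exclusive cells were placed differently along the ectoderm in the 2 embryos. An Fgf8 UMI was found in 65.2% of the En1-only and 1.28% of the Wnt7a-only cells of dual-enSERT-1. In dual-enSERT-2 the shares were 32.2% and 45.5%, the latter being 5 of 11 cells. The cells of the ectoderm-like clusters just outside the Epcam gate, at 0 UMIs, were 94 and 30, and their Wnt7a level was 21.8 and 27.6 CPM and their En1 level 92.0 and 131. Just inside, at 1 Epcam UMI, 57 and 12 cells had 35.4 and 0 CPM of Wnt7a and 58.2 and 77.2 CPM of En1.

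Ridge cells, those with an Fgf8 UMI after thinning, were compared with the surface ectoderm that had none. Of dual-enSERT-1, 65 ridge and 225 surface cells entered, and 55 and 81 entered from dual-enSERT-2. The pooled Wnt7a level was lower in the ridge of both embryos, and so was that of its paralog Wnt7b. Wnt7a stood at 13.4 CPM in ridge and 109 in surface cells of dual-enSERT-1, a ratio of 0.123 (0.0778 to 0.185). For dual-enSERT-2 the levels were 7.27 and 15.2 CPM, a ratio of 0.479 (0.224 to 0.964). The edgeR quasi-likelihood test with Benjamini-Hochberg adjustment put Wnt7a lower in the ridge by a log2 change of -2.44 (SE 0.36, adjusted p = 0.00075). In this comparison 5.11% of 10969 genes were called lower and 6.83% higher. The share of cells with a Wnt7a UMI was 3.08% in ridge and 34.7% in surface cells of dual-enSERT-1. In dual-enSERT-2 the order was opposite, at 9.09% (5 of 55 cells) and 7.41% (6 of 81), with overlapping intervals (3.02 to 19.95 and 2.77 to 15.4). The fold rested on dual-enSERT-1: it was -0.97 on the log2(CPM + 1) scale in dual-enSERT-2 alone, and Wnt7a did not pass edgeR's test without the library block (adjusted p = 0.18).

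Wnt7b fell from 105 CPM in surface to 13.9 in ridge cells of dual-enSERT-1 and from 76.4 to 3.64 in dual-enSERT-2, with a log2 change of -3.33 (SE 0.28, adjusted p = 1.3e-05 in edgeR's test). Wnt7a and its paralog shared the direction. They did not share the size of the drop across embryos, since the Wnt7a ratio was nearer to 1 in dual-enSERT-2 and the Wnt7b ratio was not (0.133 and 0.0476); that difference was not tested.

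En1 was higher in the ridge, by very different amounts in the 2 embryos. It stood at 267 CPM (244 to 292) in ridge and 34.4 (28.9 to 40.6) in surface cells of dual-enSERT-1, a ratio of 7.77 (6.42 to 9.45). It stood at 161 (142 to 181) and 132 (116 to 149) in the second library, a ratio of 1.22 (1.02 to 1.45). The edgeR quasi-likelihood test with Benjamini-Hochberg adjustment gave a log2 change of 1.65 (SE 0.44, adjusted p = 0.030). This call did not hold in 7 alternatives, among them DESeq2 (log2 1.68, adjusted p = 0.90) and thinning to 2000 UMIs (1.52, adjusted p = 0.091). The share of cells with an En1 UMI was 67.7% in ridge and 10.7% in surface cells of dual-enSERT-1. In dual-enSERT-2 it was 34.5% and 49.4%, the opposite order, with intervals that overlapped (22.2 to 48.6 and 38.1 to 60.7).

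Lmx1b, read in the same ectoderm, differed in opposite directions in the 2 libraries. It was at 11.2 CPM (20 UMIs) in ridge and 19.6 (79 UMIs) in surface cells of dual-enSERT-1, and at 30.9 (51 UMIs) and 12.1 (24 UMIs) in dual-enSERT-2. The change did not pass (log2 0.31, SE 0.43, adjusted p = 0.75 in edgeR's test). The summed level of the 7 mesenchyme markers was higher in ridge than in surface cells of both embryos, at 305 against 82.2 CPM and 399 against 72.3. Of the 7, 6 or 7 were above 0, and Pdgfra itself was called higher in the ridge. Prrx1, also among the 7, was lower in ridge cells of dual-enSERT-1 (21.2 against 28.7 CPM) and higher in those of dual-enSERT-2 (43.6 against 29.8). In cells without any Prrx1 UMI, Lmx1b was at 10.7 against 16.3 CPM in dual-enSERT-1, while dual-enSERT-2 had 35.1 against 11.9. The reporters were low in both regions: eGFP was at 27.3 and 30.9 CPM, and 1.21 and 1.52, and neither reporter passed the test.

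**Figure D3:**
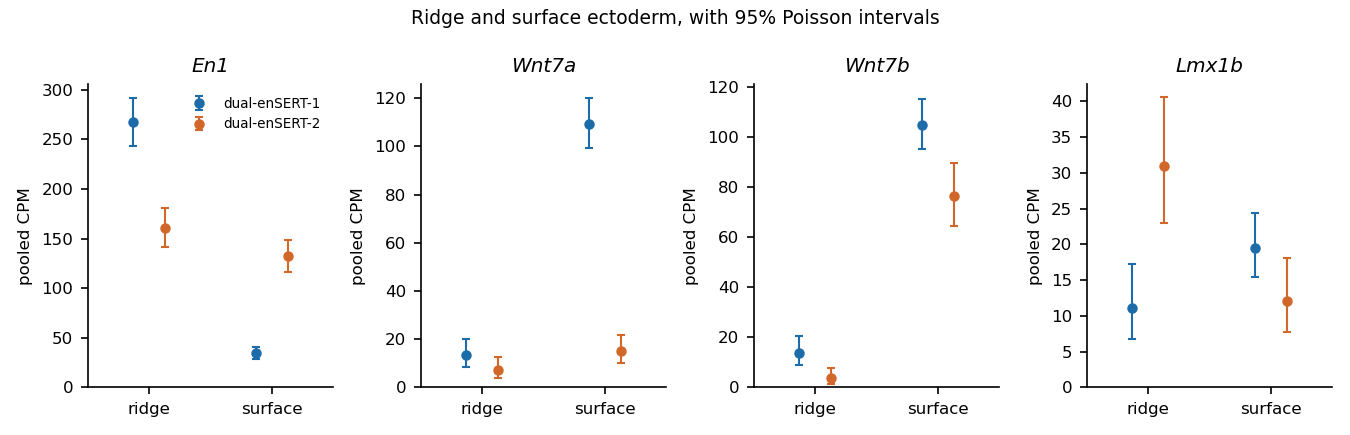
Pooled level (CPM, linear axes from 0) of En1, Wnt7a, Wnt7b and Lmx1b in ridge and surface ectoderm, 1 point per library with its exact 95% Poisson interval. En1 in the ridge is at 267 and 161 CPM, and the 2 libraries lie in opposite orders for Lmx1b.

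Genes that did not choose the cells also separated ridge from surface. Markers of some other classes moved with this division. The 7 muscle markers summed to 22.9 against 1.48 CPM, and 48.5 against 1.52, with 5 and 5, and 4 and 2, of them above 0. Endothelial markers differed little, at 20.1 against 20.5 CPM, and 23.0 against 17.2. Macrophage markers were near 0 throughout, at 1.12 against 0.742 CPM, and 0 against 1.01. The 9 erythroid markers summed to 239 against 289 CPM, and 3986 against 12942. Their part in the lists below was not tested. Of 14 ridge genes listed, 13 were called higher, among them the growth factors Fgf4 (13.9 against 0 CPM, and 51.5 against 0.506) and Fgf9 (55.8 against 4.70, and 77.6 against 2.53), and the median log2 change was 2.40 against -0.01 over all genes. In the BMP pathway, which acts upstream of En1 in the ventral ectoderm, 8 of 14 tested genes were higher, including Bmp4 (526 against 26.5 CPM, and 587 against 22.3), and 1, the receptor Bmpr1b, was lower. Of 11 tested genes of the Wnt response, 9 were higher, including Axin2 (79.2 against 20.8 CPM, and 108 against 12.1), and Tcf7l1 was lower. Of 8 tested genes in the list of secreted ectodermal Wnt ligands and Rspo2, an R-spondin that potentiates Wnt signals, Wnt6, Wnt10a, Wnt5a and Rspo2 were higher and Wnt9b, Wnt3 and Wnt7b lower.

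Among Wnt receptors and co-receptors, 6 of 13 were higher and 1, Ryk, lower. Among axon guidance cues 3 of 13 were higher and 5 lower, including Sema3a (264 against 1188 CPM, and 159 against 286). Among the LIM homeodomain partners of Lmx1b, none of 8 was higher and Ssbp2 was lower (94.3 against 148 CPM, and 61.8 against 122). By the size of the smaller fold, the genes highest in the ridge over surface included Rspo2 (866 against 1.48 CPM, and 714 against 4.55), a Wnt potentiator, then Vwde, Igfbpl1, Prr16, Aox3, Kirrel3, Pdgfra, Adamts20 and Isl2. The lowest were Bmp6, for which no UMI was found in the ridge of either library (48.0 and 31.9 CPM in surface), and Prkcb, Sost, Cdh13, Synpo2, Sema3d, Esr1, Rbfox1, Crtac1 and Ntn1. Their log2 changes ran from 5.07 to 9.11 among these higher genes and from -3.46 to -5.12 among the lower genes other than Bmp6, whose fitted fold depends on the prior count.

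Surface cells with Wnt7a and no En1 UMI were then compared with those that had En1 and no Wnt7a UMI, to see what else differed between them. Of dual-enSERT-1, 77 and 23 cells entered. Of dual-enSERT-2, 6 and 40 entered, so its Wnt7a side rested on 6 cells. Of 8306 genes, Wnt7a and En1 left out, 47 were called higher (0.566%) and 11 lower (0.132%) on the Wnt7a side by edgeR's quasi-likelihood test with Benjamini-Hochberg adjustment, and 426 had an unadjusted p under 0.05.

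Nfia, a nuclear factor I transcription factor, was at 485 CPM on the Wnt7a side and 16.9 on the En1 side of dual-enSERT-1, and at 54.6 and 7.85 in dual-enSERT-2 (log2 4.01, SE 0.43, adjusted p = 2.6e-17 in edgeR's test). Nebl was at 126 and 0 CPM, and 268 and 39.2 (log2 3.35, SE 0.39, adjusted p = 9.9e-15 in edgeR's test). The other higher genes named by rank included Kcnb2, Penk, Ccser1, Nrp2, Rhov, Nectin4 and the receptor Notch1 (82.6 against 14.1 CPM, and 229 against 50.0).

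On the En1 side, 2610027F03Rik, a long non-coding RNA gene that begins 6365 bases beyond En1 on the same strand, was at 31.1 CPM against 1.31 on the Wnt7a side of dual-enSERT-1, and at 56.9 against 0 in dual-enSERT-2 (log2 -4.75, SE 0.83, adjusted p = 6.4e-06 in edgeR's test). The Wnt receptor Fzd1 was at 79.1 against 21.6 CPM, and 66.7 against 16.4 (log2 -1.91, adjusted p = 0.0064 in edgeR's test). As with every gene named by rank, the same direction in both libraries was a condition of naming them. Kcnq5 (104.5 against 8.53 CPM, and 63.7 against 10.9), Stxbp6, Ntm, Pbx3, Unc5c and Hbb-bs were also lower on the Wnt7a side. Hbb-bs is a haemoglobin gene, and the summed level of the 9 erythroid markers was 314 against 294 CPM in the first library but 2168 against 10006 in dual-enSERT-2. Their part in this comparison was not tested.

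The pathway lists moved little between the sides. Of 13 tested BMP pathway genes, 1 was called, Msx1 (65.6 against 14.1 CPM, and 60.1 against 4.90). The axon guidance cues Sema3a (1414 against 336 CPM, and 688 against 243) and Slit3 (102 against 22.6, and 208 against 36.3) were 2 of 11 tested and were higher on the Wnt7a side. Fzd1 was the only one called of 10 tested receptors, and none of the tested Wnt ligands, ridge genes, Wnt response genes or LIM partners was called in edgeR's test. Wnt7b was at 112 and 105 CPM, and 87.4 and 64.7 (log2 0.24, SE 0.34, adjusted p = 0.998 in edgeR's test). So Wnt7b values did not follow the division that its paralog defined. Lmx1b was at 14.4 and 11.3 CPM, and 0 and 14.7, on 22, 4, 0 and 15 UMIs, too few to be tested. These calls were sensitive to how the cells were taken: with ridge cells included none was left (518 at an unadjusted p under 0.05), DESeq2 called 3, and at 2000 UMIs the signs of Msx1 (log2 -3.22) and Nrp2 (-1.11) turned. With ridge cells included, the signs of Msx1, Nrp2 and Ccser1 turned.

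In mesenchyme, Lmx1b was higher in dual-enSERT-1 than in dual-enSERT-2. It stood at 109.9 CPM (108.4 to 111.3) with a UMI in 31.4% of thinned cells (30.6 to 32.2), against 25.5 CPM (24.5 to 26.4) and 10.2% (9.26 to 11.2) in dual-enSERT-2. Without thinning the shares were 49.4% and 27.4%. The ratio of dual-enSERT-2 to dual-enSERT-1 was 0.232 (0.223 to 0.241). In this comparison of single libraries, 2.97% of 10959 genes were lower and 0.684% higher by a log2 fold of 1 or more, and 0.602% of genes had a lower log2 fold than Lmx1b. In ectoderm, Wnt7a showed the same direction with a ratio of 0.146 (0.104 to 0.201), where 2.58% of 11348 genes were lower and 1.87% higher by that fold and 0.132% had a lower log2 fold. En1 went the other way, at 1.35 times (1.20 to 1.52), and Lmx1b in ectoderm was at 1.21 times (0.886 to 1.65). The median log2 fold over genes was -0.03 in mesenchyme and 0.03 in ectoderm. With 1 library per construct there is no replicate check of these differences. Prrx1, which defined the mesenchyme, was at 791 and 752 CPM. Just outside the Prrx1 gate, 309 and 11 mesenchyme-like cells without a UMI had 88.4 and 172 CPM of Lmx1b, and just inside it, 519 and 18 cells with 1 UMI had 57.6 and 35.7.

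Lmx1b molecules were spread unevenly over mesenchyme cells. After thinning, 68.6% of cells held 0 Lmx1b UMIs, 18.1% held 1 and 7.98% held 2 in dual-enSERT-1. For dual-enSERT-2 these shares were 89.8%, 7.23% and 2.24%. The variance was 1.84 and 1.64 times the mean. A Poisson spread at the same mean would have put a UMI in 41.3% and 13.3% of cells, more than the 31.4% and 10.2% found. Across mesenchyme clusters, the level ran from 34.5 to 358 CPM over 19 clusters (median 95.9) and from 7.45 to 92.7 over 9 clusters (median 19.4).

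Position was read from other genes. Distal cells had a Hoxa13 or Hoxd13 UMI, proximal cells a Meis1 or Meis2 UMI and neither of those, and intermediate cells none of the 4. Lmx1b was found in every region. In dual-enSERT-1 it stood at 109 CPM in proximal, 126 in intermediate and 92.8 in distal cells. In dual-enSERT-2 it stood at 36.9, 17.6 and 20.2 CPM, so the intermediate band was the highest in one embryo and the lowest in the other. Distal cells were lower than proximal ones in both, at ratios of 0.854 (0.823 to 0.885) and 0.548 (0.488 to 0.615). The change did not pass (log2 -0.49, SE 0.17, adjusted p = 0.18, edgeR's quasi-likelihood test with Benjamini-Hochberg adjustment; 3.13% of genes were called lower and 1.91% higher). Without the filter on low counts it passed edgeR's test (-0.50, adjusted p = 0.0014). In posterior cells alone, chosen after the data were seen, it was -0.42 (adjusted p = 0.34 in edgeR's test, 3.15% of genes called).

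Along the anterior-posterior axis, cells were ranked by an index of posterior (Hand2, Hoxd11, Hoxd12, Tbx2) minus anterior (among them Pax9, Alx1 and Alx4) genes detected. Lmx1b was at 85.2 CPM in anterior, 119 in middle and 109 in posterior cells of dual-enSERT-1, and at 24.6, 24.2 and 26.0 in dual-enSERT-2. Anterior cells were lower than posterior ones, by a log2 change of -0.28 (SE 0.086, adjusted p = 0.021) in edgeR's quasi-likelihood test with Benjamini-Hochberg adjustment, where 4.1% of genes were called lower and 3.68% higher. The difference was larger in dual-enSERT-1, where the ratio was 0.784 (0.735 to 0.836), than in dual-enSERT-2, where it was 0.944 (0.799 to 1.11) and its interval included 1. Among distal cells the change was -0.64 (adjusted p = 0.017 in edgeR's test, 2.87% of genes called), and among proximal cells it did not pass (-0.24, adjusted p = 0.60 in edgeR's test, 2.76% called), both subsets chosen after the data were seen. Over all cells it did not pass in DESeq2 (-0.26, adjusted p = 0.64).

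Across the 9 regions that cross both axes, the level in dual-enSERT-1 ran from 59.5 CPM in anterior distal cells (95 cells) to 131 in posterior intermediate cells. In dual-enSERT-2 it ran from 15.5 CPM in middle distal to 39.8 in anterior proximal cells. Each region was higher in dual-enSERT-1, by 1.89 times (1.47 to 2.45) in anterior proximal cells up to 7.65 times (6.76 to 8.70) in middle intermediate cells. In anterior, middle and posterior cells alike, the gap between the embryos was smallest in proximal and largest in intermediate cells.

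**Figure D4:**
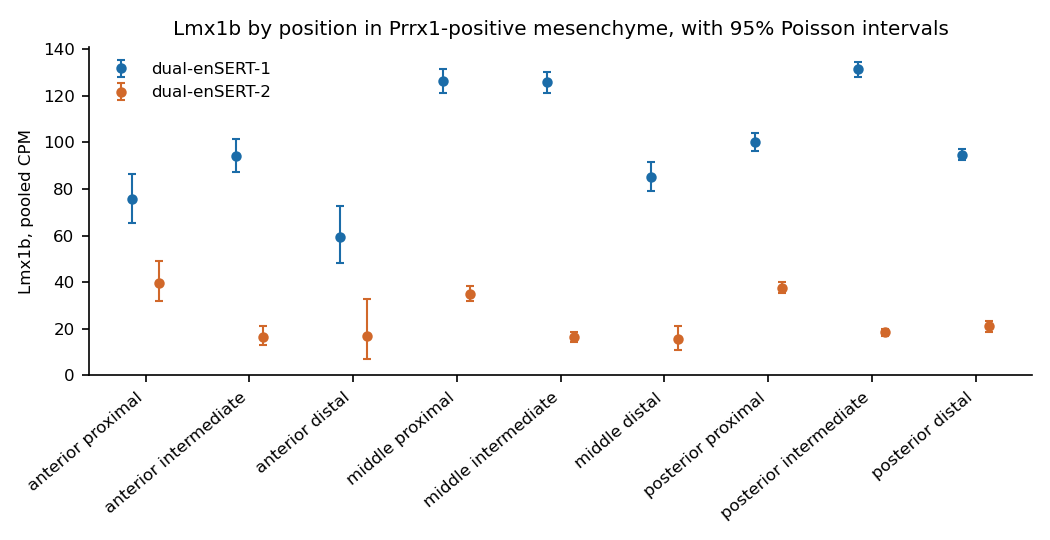
Pooled Lmx1b level (CPM, linear axis from 0) in 9 position regions of Prrx1-positive mesenchyme, 1 point per library with its exact 95% Poisson interval. All 9 regions of dual-enSERT-1 lie above those of dual-enSERT-2, and the order of the regions differs between the libraries.

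The signalling centre and the forming tissues were read next. In posterior distal cells with a Shh UMI, Shh being the posterior signal that ZRS controls, Lmx1b was at 105 CPM (228 cells) against 94.0 in those without in dual-enSERT-1, and at 34.6 (52 cells) against 19.4 in dual-enSERT-2. It was nominally higher with Shh in both, and the change did not pass (log2 0.34, SE 0.13, adjusted p = 0.28 in edgeR's test, where 1.34% of genes were called higher and 1.35% lower). For Sox9, the regulator of cartilage, the libraries went opposite ways, at 100.3 CPM in Sox9-detected against 117 in other cells, and 37.8 against 20.5 (log2 0.25, SE 0.22, adjusted p = 0.63 in edgeR's test, where 1.95% were called higher and 1.64% lower).

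Cells with Scx, the tendon regulator, had 125 CPM of Lmx1b against 104 without, and 46.7 against 23.1. Cells with Osr1 had 155 against 105 CPM, and 47.5 against 25.0, and those with Osr2 155 against 103, and 42.3 against 24.8. In each of these connective tissue classes the value was higher in both embryos; no test was made for them.

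In muscle and endothelium, whose precursors enter the limb bud from outside it, Lmx1b was near the level of cells that should lack it. Muscle-like cells held 31 UMIs (2.84 CPM, 1.93 to 4.03) and 8 UMIs (3.58 CPM, 1.55 to 7.05). Endothelial-like cells held 25 UMIs (4.39 CPM, 2.84 to 6.48) and 6 UMIs (2.42 CPM, 0.888 to 5.27). For background, erythroid-like cells held 2.45 CPM (1.27 to 4.28) and 0.594 (0.392 to 0.865), and macrophage-like cells 5.84 (2.52 to 11.498) and 1.25 (0.151 to 4.51). The intervals of muscle and endothelium overlapped those of both background classes in dual-enSERT-1, and lay above the erythroid interval but not the macrophage interval in dual-enSERT-2. Haemoglobin RNA took a large part of the erythroid UMIs, with Hbb-y alone at 389531 and 305782 CPM. This lowers the CPM and the matched-depth shares of all other genes in that class. Levels without haemoglobin UMIs were not computed, so the separation from the erythroid interval may not hold on that scale.

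At the matched depth, a Lmx1b UMI was found in 1.68% and 1.47% of muscle-like cells and 2.41% of endothelial-like cells of dual-enSERT-1. None of 71 endothelial-like cells of dual-enSERT-2 (0 of 71) had one, which allows a share of up to 4.23%. Erythroid-like cells had 0.816% and 0.368%. Median depths were 20331 and 30128 UMIs in muscle-like, 17616.5 and 16024.5 in endothelial-like and 19408 and 27305 in erythroid-like cells. Over mesenchyme, Lmx1b was lower in muscle by a log2 change of -4.42 (SE 0.60, adjusted p = 0.00082; 7.42% of genes called) and in endothelium by -3.92 (SE 0.59, adjusted p = 0.00028; 40.6% called), in edgeR's quasi-likelihood test with Benjamini-Hochberg adjustment. The background classes were lower too, erythroid by -3.45 (adjusted p = 0.00031 in edgeR's test, 60.3% called) and macrophage by -3.97 (adjusted p = 0.0010 in edgeR's test, 38.4% called). With cells called doublets kept, the muscle change was -2.21 (adjusted p = 0.37 in edgeR's test) and the erythroid and macrophage changes did not pass either. In cells without a Prrx1 UMI, Lmx1b was at 1.42 and 1.36 CPM in muscle-like and 1.81 and 2.83 in endothelial-like cells.

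Ectoderm held more Lmx1b than those classes, at 16.8 CPM (13.7 to 20.5) and 20.4 (16.0 to 25.6), with a UMI in 7.93% and 13.2% of cells. Prrx1 was also found there, in 9.31% and 5.88% of cells, and without a Prrx1 UMI the Lmx1b level of ectoderm was 14.7 and 20.9 CPM. Ectoderm was lower than mesenchyme by a log2 change of -1.49 (SE 0.47, adjusted p = 0.038 in edgeR's test), which did not pass in DESeq2 (-1.34, adjusted p = 0.17) or with doublets kept (-0.79, adjusted p = 0.62). In dual-enSERT-2 the levels of the 2 layers had overlapping intervals.

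Mesenchyme with a Lmx1b UMI after thinning (3983 and 383 cells) was compared with mesenchyme without one (8709 and 3366 cells). The undetected cells were not free of Lmx1b. At full depth they held 38.3 CPM (5231 UMIs) and 13.4 CPM (1308 UMIs), against 261 and 139 CPM in the detected cells. Of 21728 genes, Lmx1b left out, 142 were called higher (0.654%) and 43 lower (0.198%) in edgeR's quasi-likelihood test with Benjamini-Hochberg adjustment. Without the library block none passed (94 at an unadjusted p under 0.05), and DESeq2 called 135.

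The first gene by rank was C130021I20Rik, a long non-coding RNA gene on the other strand whose annotated start lies 112 bases from that of Lmx1b. It stood at 63.2 CPM in Lmx1b-detected and 16.6 in undetected cells of dual-enSERT-1, and at 24.3 and 3.09 in dual-enSERT-2 (log2 2.25, SE 0.17, adjusted p = 0.00014 in edgeR's test). Like Lmx1b, it was lower in the mesenchyme of dual-enSERT-2, at 5.11 against 31.6 CPM. Of the 111 bases between these starts, 94 are the last bases of the Lmx1b promoter printed above, whose earlier bases lie beyond the start of C130021I20Rik. Whether counting used strand is not stated by any source used here, and reads near this divergent start cannot be assigned with certainty.

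The next was Nrp2, a receptor of semaphorins, at 518 and 177 CPM, and 118 and 28.3 (log2 1.73, SE 0.095, adjusted p = 2.5e-05 in edgeR's test). The adhesion genes Cadm2 (64.4 against 23.8 CPM, and 20.2 against 7.93) and Adgrl3 (497 against 255, and 274 against 109) were also higher. The homeobox gene Shox2, which patterns the proximal limb skeleton, was at 447 against 252 CPM, and 373 against 204. Pag1, Egflam, Dab1, Ednra and Hdac9 completed the 10 named. The same direction in both libraries was a condition for naming these genes.

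The named lower genes were Pcdh15 (81.5 against 174 CPM, and 44.3 against 84.1; log2 -1.07), Rassf9, Ifitm1, Hpse2 (150 against 308, and 189 against 269), Pmaip1, Hey1, Pdzd2, Cited2, Arpc1b and Frzb, a secreted Wnt antagonist (47.2 against 64.8, and 46.2 against 68.9). Their changes, -0.47 to -1.07 on the log2 scale, were smaller than those of the leading higher genes.

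**Figure D5:**
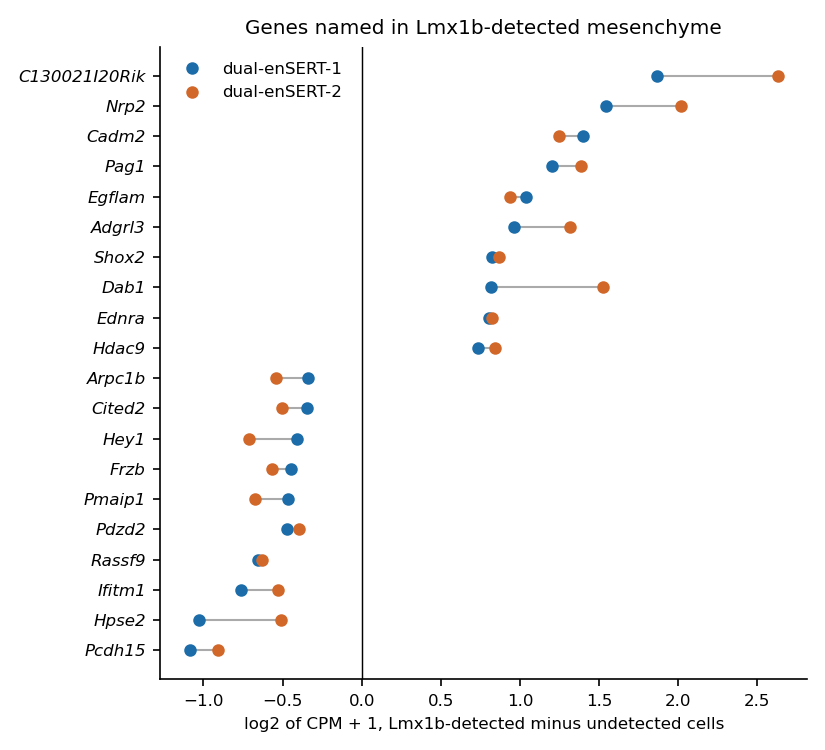
Difference in log2(CPM + 1) between Lmx1b-detected and undetected Prrx1-positive mesenchyme for the 20 named genes, 1 point per library. The genes were chosen to have the same sign in both libraries, and C130021I20Rik and Nrp2 lie farthest to the right.

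Among the listed axon guidance cues, 3 of 14 were higher in Lmx1b-detected cells. They were Ntn1 (45.5 against 11.3 CPM, and 6.41 against 2.10), Epha7 (153 against 106, and 104 against 51.2) and Efnb2 (37.7 against 22.5, and 24.96 against 12.05). Their list had a median log2 change of 0.30 against -0.01 over all genes. Of 8 LIM homeodomain partners, Ldb2 (log2 0.65) and Ssbp2 (0.48) were higher. LDB proteins bind the LIM domains, and SSBP proteins bind LDB proteins. In the Wnt response, none of 12 was called, with a median of 0.16, and the ligand Wnt5a was lower (165 against 197 CPM, and 96.4 against 126; adjusted p = 0.042 in edgeR's test). Among 16 BMP pathway genes Bmp4 was higher (130 against 102 CPM, and 108 against 67.5), and among 17 receptors Ror1 was (88.8 against 55.7, and 95.1 against 33.5). The reporters and Shh were not called: eGFP was at 162 and 140 CPM, and 26.2 and 27.1 (log2 0.07, SE 0.083, adjusted p = 0.86 in edgeR's test), and Shh at 8.20 and 7.50, and 11.4 and 7.76 (log2 0.25, adjusted p = 0.58 in edgeR's test).

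The genes most like each member were ranked by the smaller of the 2 libraries' Pearson correlations of log2(CPM + 1) over 12 cell groups, among 13096 genes. These correlations describe profiles whose groups share a library, and carry no test. For Lmx1b they were Clmn (0.94 and 0.96), the collagen gene Col1a1 (0.89 and 0.93), the non-coding 9430024E24Rik (0.96 and 0.89), Scube1 (0.88 and 0.89) and Kif26b (0.92 and 0.87). The third of these lies 75280 bases from Lmx1b and, like it, was lower in dual-enSERT-2 (5.47 against 42.7 CPM in mesenchyme). For En1 they were Lad1, Sp6, Grm4, Dlx3 and Dlx1 (0.98 or higher), of which Sp6, Dlx3 and Dlx1 are transcription factors of the ectoderm. For Wnt7a they were Crb3, Emx1, an unnamed gene with the identifier ENSMUSG00000120976, Krt14 and Krt7 (0.99 or higher), among them 2 keratins. Ectoderm makes up 2 of the 12 groups, so profiles of ectodermal genes differ little.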

How the data were processed

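The values used were raw UMI counts per gene and barcode, as deposited by the authors. They were made with Cell Ranger, 7.0.1 per the file headers and 3.1.0 per the submitters' processing notes, which also name Seurat 4 and mm39. Per the labels, 10000 cells were loaded, and no source used here gives the counting settings for strand and introns.

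The 2 libraries held 20508 and 8885 barcodes with 298653282 and 184301053 UMIs (dual-enSERT-1, then dual-enSERT-2). Barcodes under 1000 genes (2593 and 1502) or over 10% mitochondrial UMIs (125 and 700) were removed, then 1749 and 211 barcodes called doublets by Scrublet in Scanpy 1.11.5 (expected 8%). Each library was clustered alone (2000 variable genes, 30 principal components, 15 neighbours, Leiden resolution 1). Of 56982 feature IDs, 56236 were found in GENCODE M39. The members and lists were chosen with earlier results of these data known.

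UMIs were summed per library and cell group and tested with edgeR 4.0.16 (R 4.3.3; quasi-likelihood test, TMM, filterByExpr) with the library as a block, which pairs groups from the same embryo. This leaves 1 residual degree of freedom in a comparison of 2 groups. The cell classes were fitted together, which leaves more. Calls used a Benjamini-Hochberg adjusted p under 0.05. The SE given with an edgeR change was derived from the test, as the absolute change divided by the square root of its F statistic. The genes that divided the cells were left out of the counts. Genes were named, up to 10 per direction, by the smaller absolute log2 difference of the libraries, CPM plus a pseudocount of 1, among calls with the same direction in both and at least 20 CPM in either group of each. Members, paralogs, reporters, Shh, the 5 most alike genes and called list members were also named. A gene of the anterior index and some genes that the rule names are not reported here. On simulated counts, 100 genes were changed 4-fold and 100 changed 2-fold. The fit recovered 97% and 45% for ridge against surface (10970 genes). It recovered 72% and 21% for the Wnt7a side against the En1 side (8309 genes), and 92% and 74% for Lmx1b-detected against undetected cells (21729 genes). In that order, 4, 5 and 11 unchanged genes were also called. The simulation gave all genes the same spread and both libraries the same fold, whereas real folds could differ between the libraries. Alternatives were DESeq2 1.42.0, other size factors, filters, thinning depths, clusterings and gates, and each library left out.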

Additional observations from a re-analysis of the deposited data

Results flagged for a closer look

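Lmx1b differed in opposite directions in the embryos in 2 comparisons. Between Sox9-detected and other mesenchyme its ratio was 0.858 in dual-enSERT-1 (0.835 to 0.881) but 1.84 in dual-enSERT-2 (1.71 to 1.99). Between ridge and surface ectoderm its ratio was 0.571 in dual-enSERT-1 (0.331 to 0.941) but 2.55 in dual-enSERT-2 (1.54 to 4.33). The intervals cover counting error only, and with 1 library per construct the difference between the libraries was not tested.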

How the results depend on the processing

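Of the alternatives to the main member values and gene counts, 156 kept their side of the threshold or moved by less than the spread, 20 lost a call, 1 gained one and 23 moved. With a library left out, that spread came from the same 2 library values, so staying within it is no sign of stability. Lmx1b in the ridge was counted as kept there although its sign turned. No called value changed sign, but the uncalled Lmx1b change by Sox9 did so without the block and in dual-enSERT-1 alone, and that in the ridge in dual-enSERT-1 alone (-0.76, against 1.28 in dual-enSERT-2 alone). Folds are log2 changes, and unless stated the cause was not tested. Without the replicate block, which pairs groups of the same embryo, Wnt7a in the ridge was -2.60, En1 1.47, Lmx1b anterior over posterior -0.29, Lmx1b by Sox9 -0.033, Lmx1b in ectoderm over mesenchyme -1.79, and the genes called fell from 1309 to 565 (ridge), from 58 to 20 (Wnt7a side) and from 185 to 0 (Lmx1b-detected, 94 at an unadjusted p under 0.05 in edgeR's test). En1 in the ridge lost its call also with DESeq2 (1.68), at 2000 UMIs (1.52), at 10000 UMIs (1.69), with doublets kept (1.73), with at least 2000 genes per cell (1.74) and with no Epcam gate (1.61). Lmx1b distal over proximal gained a call without the filter on low counts (-0.50). Lmx1b anterior over posterior lost its call with DESeq2 (-0.26), at 2000 UMIs (-0.20) and in proximal cells (-0.24). Lmx1b in ectoderm over mesenchyme lost its call with DESeq2 (-1.34), RLE size factors (-1.45), at least 2000 genes (-1.43) and doublets kept (-0.79), and doublets kept also ended it in muscle (-2.21), erythroid (-1.77) and macrophage (-2.66) cells.

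DESeq2 called 511 genes in the ridge comparison and 3 between the Wnt7a and En1 sides. The latter count was 34 with RLE size factors, 10 at 2000 UMIs, 102 at 10000 UMIs, 3 with detection at 2 UMIs and 0 with ridge cells included. Lmx1b-detected cells gave 639 genes without the filter, 322 at 2000 UMIs, 114 with at least 2000 genes, 306 with no Prrx1 gate and 386 with detection at 2 UMIs. Co-detection in dual-enSERT-1 was 0% at 2000 UMIs. In cells without a Prrx1 UMI, Lmx1b stood at 1.42 and 1.36 CPM in muscle and 1.81 in endothelium of dual-enSERT-1. Between the Wnt7a and En1 sides, Ccser1 (-1.34), Msx1 (-0.80) and Nrp2 (-0.29) reversed with ridge cells included, and Msx1 (-3.22) and Nrp2 (-1.11) at 2000 UMIs. With either library left out, the log2(CPM + 1) difference ran from -2.94 to -0.97 for Wnt7a and 0.28 to 2.92 for En1 in the ridge. For Lmx1b it ran from -0.84 to -0.23 (distal), -0.35 to -0.081 (anterior), 0.16 to 0.80 (Shh) and -0.22 to 0.85 (Sox9). Gene counts have no such fit, as no residual degree of freedom is left.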

Other observations

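The Lmx1b paralog Lmx1a was found in erythroid-like cells. It stood at 40.01 CPM (34.6 to 46.0) in dual-enSERT-1, with 38.0 CPM (36.3 to 39.9) in the second library, and at 0.377 and 0.538 CPM in mesenchyme. Before thinning, 46.9% and 47.6% of erythroid-like cells held a Lmx1a UMI. Over mesenchyme the log2 change was 8.72 (SE 0.52, adjusted p = 1.5e-07 in edgeR's test with Benjamini-Hochberg adjustment).

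Between the libraries, the BMP receptor Bmpr1b was lower in dual-enSERT-2 in both layers, at 35.0 against 127.7 CPM in mesenchyme and 20.4 against 106.1 in ectoderm. The ligand Bmp2 was lower in mesenchyme (0.807 against 10.9 CPM) and higher in ectoderm (31.3 against 17.7 CPM). No test was possible with 1 library per construct.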
